A study of Arabidopsis thaliana with 36 samples.

Results

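The tau and phi classes are the 2 largest groups of plant glutathione transferases (GSTs). The members here are the genes of the GSTU (tau) and GSTF (phi) series that had at least 10 counts summed over all libraries, with no difference between groups in the rule. They number 41 genes, 28 tau and 13 phi, among the 24532 genes of the count table. RNA was sequenced from roots of 7-day-old Arabidopsis thaliana seedlings, with around 15 roots pooled in each biological replicate. The 36 libraries form 12 groups of 3, made from 3 genotypes under 4 treatments of 24 h. The genotypes were IMA1ox, which expresses mCitrine-tagged IMA1 from the UBQ10 promoter, then fls2, a mutant of the flg22 receptor gene, and WT, the Col-0 accession. Each genotype was kept on -Fe medium with 100 nM flg22, on -Fe medium alone, on +Fe medium with 100 nM flg22, and on +Fe medium alone. The -Fe medium held 50 µM FerroZine, an iron chelator, and the +Fe medium held 75 µM Fe. The labels do not say how many IMA1ox lines were used, and a ubiquitin promoter drives the transgene in most cells. Since each library is a pool of roots, p-values here measure the spread between pools.

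GSTs join the tripeptide glutathione to reactive or foreign molecules. The conjugates are pumped into the vacuole and broken down there, and some members instead bind ligands or act in the synthesis of sulphur-containing defence compounds. In roots the tau class is best known for its response to herbicide safeners and other xenobiotics, and several phi members for their response to pathogens. The peptide flg22 is a fragment of bacterial flagellin that the receptor kinase FLS2 senses at the cell surface. IMA1 is a small peptide that raises iron uptake under iron deficiency.

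The libraries held 28130566 to 40903411 counts on genes, and the 41 members took 0.448% to 0.715% of the counts of a library. Of the 41, 39 (27 tau and 12 phi) passed the minimum on low counts, among 20354 genes tested. GSTU15, with 43 counts over all 36 libraries, and GSTF5, with 70, did not pass. FLS2 had 0 counts in every untreated fls2 library, at most 3 in flg22-treated fls2 libraries, and 23 to 237 in WT libraries. IMA1 averaged 309.7 ± 3.96 CPM in IMA1ox against 13.8 ± 4.74 CPM in WT on -Fe, and 341.1 ± 8.29 CPM against 2.45 ± 0.657 CPM on +Fe (SD, n = 3 each). CPM is the read count scaled to a common normalised library size, and the IMA1 values include the transgene. IMA1ox -Fe flg22 replicate 1 and WT -Fe replicate 3 stood farthest from the other libraries of their groups, with mean correlations of 0.9838 and 0.9865 against at least 0.9871 for the rest. Counts of called members in a single comparison or difference that rest on 1 of them are given with and without it. Counts that join several comparisons are given with all libraries only.

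Markers of root cell types and of green shoot tissue moved with flg22 in IMA1ox and WT. Of 12 tested root cell markers, flg22 lowered 9 on -Fe and 9 on +Fe in IMA1ox and raised 0. In WT it lowered 6 and raised 0 on -Fe, and lowered 5 and raised 1 on +Fe. Their summed level was 288.8 to 419.9 CPM in IMA1ox -Fe flg22 libraries against 591.8 to 610.1 CPM in IMA1ox -Fe libraries, and 327.8 to 438.3 CPM in WT +Fe flg22 against 524.3 to 646.6 CPM in WT +Fe. Of 9 tested green shoot markers, flg22 raised 6 on -Fe and 5 on +Fe in IMA1ox, 8 on -Fe and 6 on +Fe in WT, and lowered 0. Their summed level was 330.2 to 559.1 CPM in WT -Fe flg22 against 183.7 to 283.6 CPM in WT -Fe, and 326.6 to 468.2 CPM in WT +Fe flg22 against 223.7 to 295.5 CPM in WT +Fe. Over all genes tested, flg22 lowered 21.5% on -Fe and 20.4% on +Fe in IMA1ox, and 16.8% and 19.4% in WT. It raised 24% on -Fe and 23% on +Fe in IMA1ox, and 18.2% and 20.8% in WT. No marker was at 0 in any group, and in fls2 0 of either list passed for flg22. The part of these markers in the flg22 results was not tested, and in bulk roots fewer cells of a type and less RNA per cell cannot be told apart.

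Per kilobase of coding sequence the family was led by a pair of phi genes. GSTF9 (AT2G30860) and GSTF10 (AT2G30870), neighbours on chromosome 2 known from glucosinolate synthesis, had 2760 and 1660 CPM per kb as the mean of the 12 groups. GSTU19, an abundant safener-inducible tau member, followed with 730, the ligand-binding phi member GSTF2 with 609 and the stress-inducible GSTF8 with 462. Between the lowest and the highest group, the level per kb differed 1.4-fold in GSTF9, 1.45-fold in GSTF10, 5.61-fold in GSTF2 and 21.9-fold in GSTF7, a close copy of GSTF6. In GSTU13, a tau member tied to indole glucosinolate defence, the groups differed 1.12-fold. GSTF9 and GSTF10 together held 40.6% of the members' summed CPM in IMA1ox +Fe flg22 and 53.2% in IMA1ox -Fe, against 55.4% in WT +Fe.

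The summed level of the 41 members was highest in IMA1ox +Fe flg22 and lowest in IMA1ox -Fe. It averaged 5818 ± 513 CPM in IMA1ox -Fe flg22 against 4455 ± 118 CPM in IMA1ox -Fe, and 6712 ± 339 CPM in IMA1ox +Fe flg22 against 5731 ± 518 CPM in IMA1ox +Fe (SD, n = 3 each). Without IMA1ox -Fe flg22 replicate 1, at 5238 CPM, the other two libraries of its group had 6004 and 6212 CPM. The sum was 6188 ± 353 CPM in WT -Fe flg22 against 5288 ± 270 CPM in WT -Fe, and 5842 ± 56.9 CPM in WT +Fe flg22 against 5177 ± 139 CPM in WT +Fe. WT -Fe replicate 3 had 4975 CPM, and the other two WT -Fe libraries had 5438 and 5450 CPM. In fls2 it was 5176 ± 242 CPM with flg22 against 5264 ± 227 CPM without on -Fe, and 5384 ± 150 CPM against 5158 ± 124 CPM on +Fe. GSTF2, GSTF3, GSTF6 and GSTF7 together carried 1680 ± 237 CPM in IMA1ox +Fe flg22 and 316.4 ± 35.8 CPM in IMA1ox -Fe, against 268.4 ± 13.5 CPM in WT +Fe.

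**Figure D1:**
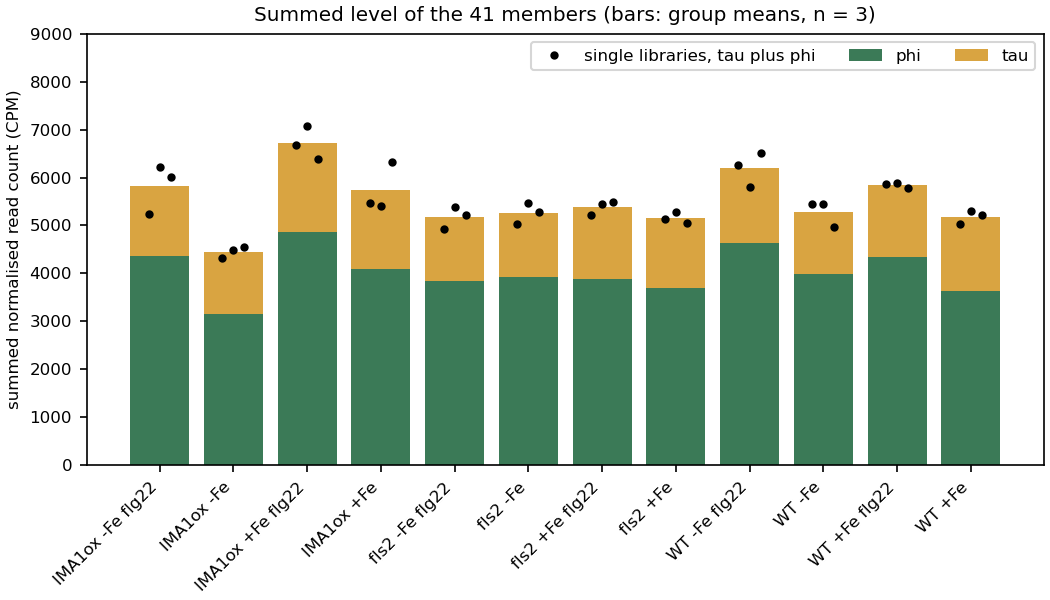
Summed normalised read count (CPM, vertical axis) of the phi members (lower part of each bar) and the tau members (upper part) in the 12 groups, as group means of 3 libraries, with dots for single libraries. The IMA1ox +Fe flg22 bar, at 6712 CPM, is the tallest and the IMA1ox -Fe bar, at 4455 CPM, the shortest.

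In WT roots on +Fe, flg22 raised a set of phi and tau members, 10 of them by at least 2-fold. Of the 39 tested members, 21 (53.8%) differed between flg22-treated and untreated roots at an adjusted p under 0.05, against 40.1% of all genes tested, in edgeR's quasi-likelihood test with Benjamini-Hochberg adjustment, used for every adjusted p here. Higher with flg22 were 14 members (10 tau, 4 phi), against 20.8% of all genes, and lower were 7 (4 tau, 3 phi), against 19.4% of all genes. A rise of at least 2-fold was found in 10 members and in 2.74% of all genes, and a fall of at least 2-fold in 4 members and in 2.98% of all genes. The median log2 fold change of the members was 0.12, beside 0.01 over all genes. Log2 fold changes and their differences are given with their standard error after ±. For flg22 in WT on either medium, the largest rises and falls were listed only where the groups did not overlap. The lack of overlap in the listed members was thus fixed by that choice.

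The phi members that responded most were GSTF6 (AT1G02930), which acts in the synthesis of the phytoalexin camalexin, its neighbour and near copy GSTF7 (AT1G02920), and GSTF3 (AT2G02930). GSTF6 had 337, 267 and 248 CPM in the 3 WT +Fe flg22 libraries, against 15.7, 17.3 and 20.9 CPM in the 3 WT +Fe libraries (log2 fold change 3.98 ± 0.53, adjusted p = 3.52e-06). GSTF7 had 409, 346 and 297 CPM with flg22, against 38.2, 46 and 52.6 CPM without (log2 fold change 2.94 ± 0.39, adjusted p = 3.58e-06). Every flg22 library stood above every untreated one for both genes. GSTF3 had 5.07, 5.47 and 3.4 CPM with flg22, against 0.0856, 0.102 and 0.397 CPM without (log2 fold change 4.51 ± 0.65, adjusted p = 8.53e-06). GSTF3 is thus a low gene whose untreated libraries lie near 0, and without WT +Fe replicate 3 its log2 fold change was 5.57. GSTF2 (AT4G02520) had 575, 554 and 344 CPM with flg22, against 228, 192 and 194 CPM without, with no overlap and with its lowest flg22 value in replicate 3 (log2 fold change 1.26 ± 0.20, adjusted p = 3.28e-05).

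Among the tau members the rises were led by the neighbours GSTU12 (AT1G69920) and GSTU11 (AT1G69930). GSTU12 had 12.7, 10.5 and 17.1 CPM with flg22, against 0.371, 0.0681 and 0 CPM without (log2 fold change 6.44 ± 0.92, adjusted p = 8.56e-06). Its untreated libraries were almost empty, and the log2 fold change was 8.58 without WT +Fe replicate 1 and 5.82 without WT +Fe replicate 3. GSTU11 had 4.48, 3.24 and 3.72 CPM with flg22, against 0.371, 0.17 and 0.227 CPM without (log2 fold change 3.86 ± 0.47, adjusted p = 3.74e-07). GSTU3, the lowest tested member by level per kb, had 0.548, 0.4 and 0.632 CPM with flg22, against 0.0856, 0.034 and 0.17 CPM without (log2 fold change 2.35 ± 0.61, adjusted p = 0.00294), and 3.0 on the log2 scale without WT +Fe replicate 3. The groups did not overlap in any of these 3 genes, as the choice of members required. GSTU10 (AT1G74590) had 27.3, 25.9 and 26.2 CPM with flg22, against 7.59, 9.83 and 9.69 CPM without (log2 fold change 1.55 ± 0.21, adjusted p = 3.05e-06). GSTU4 (AT2G29460) had 8.42, 8.31 and 7.93 CPM with flg22, against 2.31, 2.89 and 2.61 CPM without (log2 fold change 1.66 ± 0.26, adjusted p = 1.76e-05), again with no overlap. On the scale of log2(CPM + 1), where low genes move less, limma gave 3.64 for GSTU12, 2.23 for GSTF3, 1.93 for GSTU11 and 0.48 for GSTU3.

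The falls in WT on +Fe were smaller. GSTU14 (AT1G27140) had 4.04, 2.8 and 6.32 CPM with flg22, against 20.7, 18 and 20.6 CPM without (log2 fold change -2.18 ± 0.31, adjusted p = 6.48e-06). GSTU20, a tau member of aliphatic glucosinolate synthesis, had 34.4, 39.6 and 57.5 CPM with flg22, against 101, 107 and 93.3 CPM without (log2 fold change -1.20 ± 0.23, adjusted p = 0.000223). All flg22 libraries were below all untreated ones for both. GSTF13 had 5.61, 4.97 and 5.4 CPM against 12.6, 9.36 and 11.3 CPM (log2 fold change -1.06 ± 0.18, adjusted p = 3.08e-05). GSTU25, known from the detoxification of trinitrotoluene, had 10.3, 8.51 and 11.2 CPM against 16.9, 23.5 and 21.1 CPM, also without overlap (log2 fold change -1.03 ± 0.18, adjusted p = 5.70e-05).

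In WT roots on -Fe, flg22 raised 16 of the 27 tested tau members and 4 of the 12 phi members. Of the 39, 26 (66.7%) differed, against 35% of all genes. Higher were 20 members (16 tau, 4 phi), against 18.2% of all genes, and lower were 6 (3 tau, 3 phi), against 16.8% of all genes. Rises of at least 2-fold were found in 9 members and in 2.6% of all genes, and 1 member fell by at least 2-fold, as did 2.53% of all genes. Without WT -Fe replicate 3, 25 members passed, 19 higher and 6 lower, against 35.6% of all genes in that fit. Of them 13 rose and 2 fell by at least 2-fold. The median log2 fold change was 0.50 for the members and 0.00 over all genes. This comparison shares no library with that on +Fe, and 19 members passed in both with the same sign and 0 with opposite signs. Those 19 are 73.1% of the calls on -Fe and 90.5% of the calls on +Fe, where over all genes the shares were 74.1% and 64.5%.

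GSTF6 had 358, 244 and 285 CPM in WT -Fe flg22 libraries, against 16.5, 19.4 and 25.8 CPM in WT -Fe libraries (log2 fold change 3.85 ± 0.52, adjusted p = 5.48e-06). GSTF7 had 425, 328 and 336 CPM against 40.6, 36.1 and 56 CPM (log2 fold change 3.04 ± 0.39, adjusted p = 2.74e-06). Both were high in every flg22 library and low in every untreated one, as on +Fe. GSTF3 had 4.81, 4.94 and 6.43 CPM against 0.177, 0.098 and 1.54 CPM (log2 fold change 3.19 ± 0.54, adjusted p = 6.98e-05). WT -Fe replicate 3 was the high untreated library of GSTF3, and without it the log2 fold change was 5.23. GSTU12 had 20.1, 13.9 and 14.9 CPM against 0.177, 1.21 and 1.07 CPM (log2 fold change 4.34 ± 0.71, adjusted p = 4.96e-05). GSTU11 had 6.88, 4.66 and 4.64 CPM against 0.532, 0.719 and 0.368 CPM (log2 fold change 3.31 ± 0.41, adjusted p = 6.28e-07). GSTU3 had 0.806, 0.622 and 1.22 CPM against 0.0295, 0.0654 and 0.0669 CPM (log2 fold change 3.96 ± 0.64, adjusted p = 2.39e-05). None of the 3 tau genes had overlapping groups, as the choice of members required, and GSTU3 rested on few counts in untreated roots.

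On the falling side on -Fe, GSTU14 had 3.6, 6.62 and 5.4 CPM with flg22, against 19.6, 16.2 and 20.8 CPM without (log2 fold change -1.86 ± 0.30, adjusted p = 3.57e-05). GSTF13 had 7.53, 7.83 and 6.59 CPM against 11.5, 14 and 14.5 CPM (log2 fold change -0.86 ± 0.17, adjusted p = 0.000234). The flg22 libraries of both lay below all untreated ones. GSTF11, a phi member of aliphatic glucosinolate synthesis, had 18.8, 19.8 and 22.9 CPM against 31.3, 30.2 and 24 CPM (log2 fold change -0.48 ± 0.13, adjusted p = 0.00670). GSTF4 had 15.8, 17.1 and 20.5 CPM against 23.3, 21 and 23.1 CPM (log2 fold change -0.34 ± 0.13, adjusted p = 0.0433). The GSTF4 call was lost without WT -Fe replicate 1 or 3 or WT -Fe flg22 replicate 1 or 2, with adjusted p between 0.0887 and 0.159. The test of the flg22 effect on -Fe minus that on +Fe in WT passed in 1 member, against 0.246% of all genes. That member was GSTU1, with 36.7, 35.2 and 39.3 CPM with flg22 against 23.9, 23.3 and 21.5 CPM without on -Fe, and 33.2, 37 and 36.3 CPM against 31.5, 38.6 and 32.2 CPM on +Fe. The difference was 0.63 ± 0.13 on the log2 scale, adjusted p = 0.0191, and it was lost without WT +Fe replicate 2, WT +Fe flg22 replicate 1 or WT -Fe flg22 replicate 3, with adjusted p between 0.0533 and 0.0672. Without WT -Fe replicate 3 the count was also 1, against 0.298% of all genes in that fit.

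**Figure D2:**
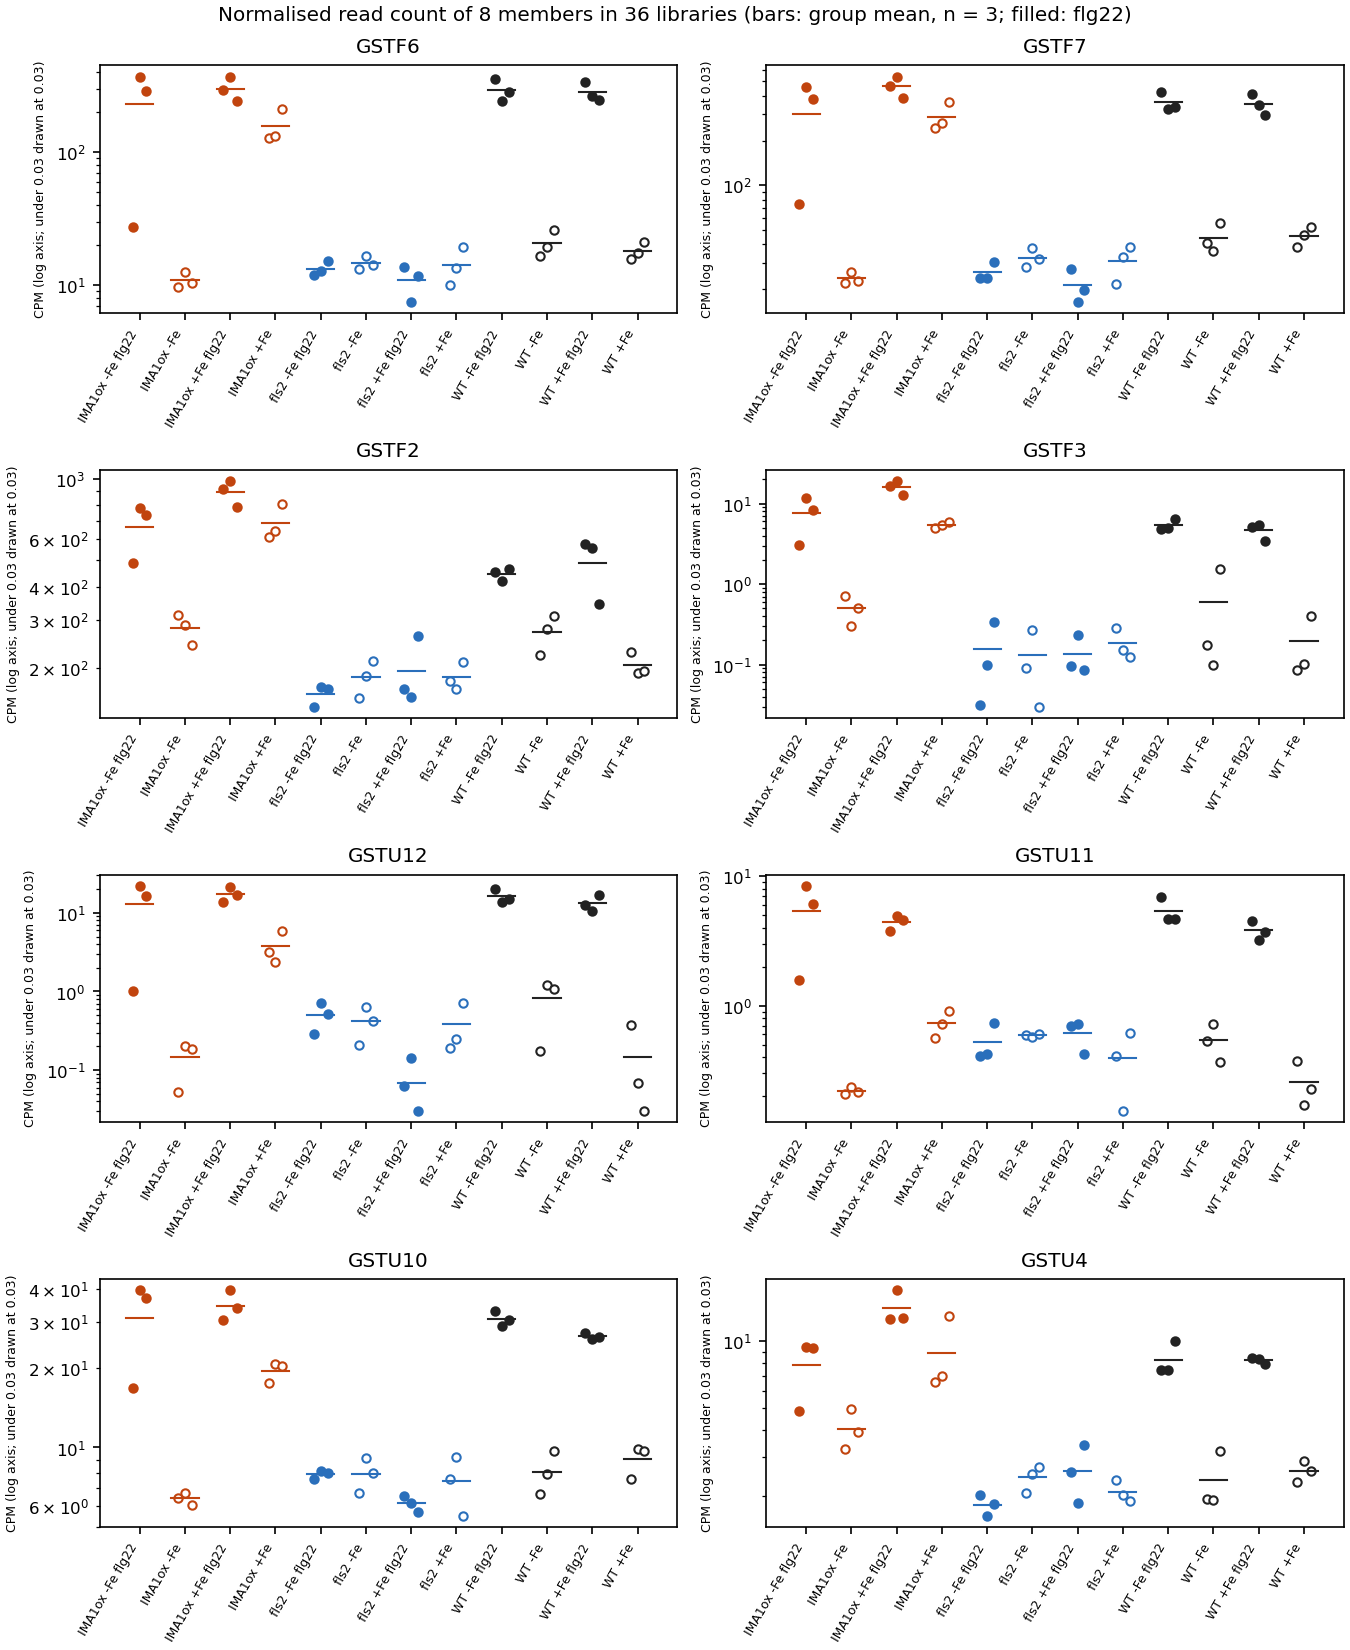
Normalised read count (CPM, vertical log axis; values under 0.03 are drawn at 0.03) of 8 members in all 36 libraries, by genotype, iron supply and flg22. Points are libraries, filled with flg22 and open without, and bars are group means of 3. In WT and IMA1ox on -Fe the filled points of GSTF6 lie above the open ones, at 244 to 358 CPM in WT and 27.2 to 372 CPM in IMA1ox, and in fls2 all points of GSTF6 lie at or below 19.4 CPM.

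No member passed for flg22 in fls2 roots, whose receptor gene is disrupted. The count was 0 of 39 on -Fe and 0 of 39 on +Fe, where 0% of all genes passed in each, and DESeq2 and limma also gave 0 members in both. At an unadjusted p under 0.05 there were 3 members on -Fe, where 3.96% of all genes were under that value, and 1 member on +Fe, where 3.18% were. GSTF6 had 11.9, 12.8 and 15.1 CPM in fls2 -Fe flg22 libraries against 13.2, 16.5 and 14.1 CPM in fls2 -Fe libraries, and 13.6, 7.45 and 11.6 CPM against 9.96, 13.4 and 19.4 CPM on +Fe. The groups overlapped in both media. GSTF7 had 23.9, 23.8 and 30.3 CPM against 28, 37.6 and 31.8 CPM on -Fe, and 27.4, 16.4 and 19.8 CPM against 21.8, 32.9 and 38.6 CPM on +Fe. GSTF3 did not exceed 0.338 CPM in any fls2 library, nor GSTU12 0.717 CPM. The test of the flg22 effect in fls2 minus that in WT passed in 16 members on -Fe (14 with a lower effect in fls2 and 2 with a higher one), against 21.2% of all genes (11% lower and 10.2% higher). Without WT -Fe replicate 3 the count on -Fe was 21, against 23.6% of all genes in that fit. Of the 21, 17 had a lower effect in fls2 and 4 a higher one. On +Fe it passed in 18 members (12 with a lower effect and 6 with a higher one), against 20.2% of all genes (10.4% lower and 9.86% higher). For GSTF6 the difference was -3.98 ± 0.73 on the log2 scale, adjusted p = 0.000518 on -Fe and -4.38 ± 0.74 on the log2 scale, adjusted p = 0.000328 on +Fe. For GSTU14, which fell in WT, it was 2.1 ± 0.40 on the log2 scale, adjusted p = 0.000636 on -Fe and 2.06 ± 0.41 on the log2 scale, adjusted p = 0.00119 on +Fe. Without flg22, fls2 and WT differed in 0 members on either medium, against 0.103% of all genes on -Fe and 0.0197% on +Fe. DESeq2 and limma also gave 0. On -Fe without WT -Fe replicate 3 the count was 0 as well, against 0.0439% of all genes in that fit. At an unadjusted p under 0.05 there were 4 members on each medium, or 4 of 39, where 9.49% of all genes on -Fe and 6.49% on +Fe were under that value.

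In IMA1ox roots flg22 raised GSTF6 and GSTF7 on -Fe, and on +Fe the change of neither passed. On -Fe, 26 of 39 members passed (66.7%), 20 higher (14 tau, 6 phi) and 6 lower (5 tau, 1 phi), against 45.5% of all genes (24% higher and 21.5% lower). Rises of at least 2-fold were found in 11 members and in 3.42% of all genes, and falls of that size in 2 members and in 2.82% of all genes. GSTF6 had 27.2, 372 and 290.3 CPM in IMA1ox -Fe flg22 libraries, against 9.66, 12.5 and 10.3 CPM in IMA1ox -Fe libraries (log2 fold change 4.42 ± 0.55, adjusted p = 8.94e-07). GSTU12 had 1.01, 22.1 and 16.2 CPM against 0.0523, 0.203 and 0.187 CPM (log2 fold change 6.49 ± 0.91, adjusted p = 4.89e-06). Replicate 1 of the flg22 group, 1 of the 2 libraries that stood apart, was the lowest of its group for both genes and yet above all untreated libraries. Without that library 29 members passed, 20 higher and 9 lower, against 45.8% of all genes in that fit. Of them 12 rose and 2 fell by at least 2-fold. Without it the log2 fold change was 4.93 for GSTF6 and 7.02 for GSTU12. GSTU14 fell with it (log2 fold change -1.44 ± 0.28, adjusted p = 0.000220) and fell by 2.22 on the log2 scale without it, and its call was lost when the 2 groups were fitted alone (adjusted p = 0.0925). The value for GSTU12 was 5.88 without IMA1ox -Fe flg22 replicate 2.

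On +Fe, 21 of 39 members passed in IMA1ox (53.8%), 14 higher (12 tau, 2 phi) and 7 lower (4 tau, 3 phi), against 43.4% of all genes (23% higher and 20.4% lower). Rises of at least 2-fold were found in 3 members and in 1.53% of all genes, and falls of that size in 2 members and in 1.92% of all genes. The 3 were GSTU11 (log2 fold change 2.60 ± 0.39, adjusted p = 1.22e-05), GSTU12 (log2 fold change 2.19 ± 0.57, adjusted p = 0.00362) and GSTF3 (log2 fold change 1.58 ± 0.40, adjusted p = 0.00279), and for GSTF3 DESeq2 gave an adjusted p of 0.053. The 2 were GSTF13 (log2 fold change -1.97 ± 0.18, adjusted p = 2.82e-08) and GSTU14 (log2 fold change -1.26 ± 0.29, adjusted p = 0.00131). GSTF6 had 294, 367 and 245 CPM in IMA1ox +Fe flg22 libraries against 129, 132 and 214 CPM in IMA1ox +Fe libraries (log2 fold change 0.93 ± 0.46, adjusted p = 0.104), which did not pass. GSTF7 had 467, 539 and 388 CPM against 243, 264 and 362 CPM (log2 fold change 0.68 ± 0.36, adjusted p = 0.128), which did not pass either. All flg22 libraries of both genes were above the untreated ones, whose own level was several-fold that of untreated WT.

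Over the 4 comparisons of flg22 with no flg22 in IMA1ox and WT, 8 members passed as higher in all 4, namely GSTF3, GSTU4, GSTU5, GSTU8, GSTU10, GSTU11, GSTU12 and GSTU16. GSTF13 and GSTU14 passed as lower in all 4. Among these, GSTF3 in IMA1ox on +Fe did not pass by DESeq2, and GSTU14 in IMA1ox on -Fe did not pass with the groups fitted alone. In all, 24 members were higher in at least 1 and lower in none, 10 were lower in at least 1 and higher in none, and 5 passed in none (GSTF9, GSTF12, GSTU6, GSTU13 and GSTU17). No member passed in both directions. Of all genes, 10.4% were higher in all 4 and 7.92% lower in all 4, beside 20.5% and 5.13% of the 39 members. Higher in at least 1 and lower in none were 33.5% of all genes, beside 61.5% of the members, and lower in at least 1 and higher in none 33.2%, beside 25.6%. Of all genes, 32.5% passed in none, beside 12.8% of the members, and 0.801% passed in both directions.

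**Figure D3:**
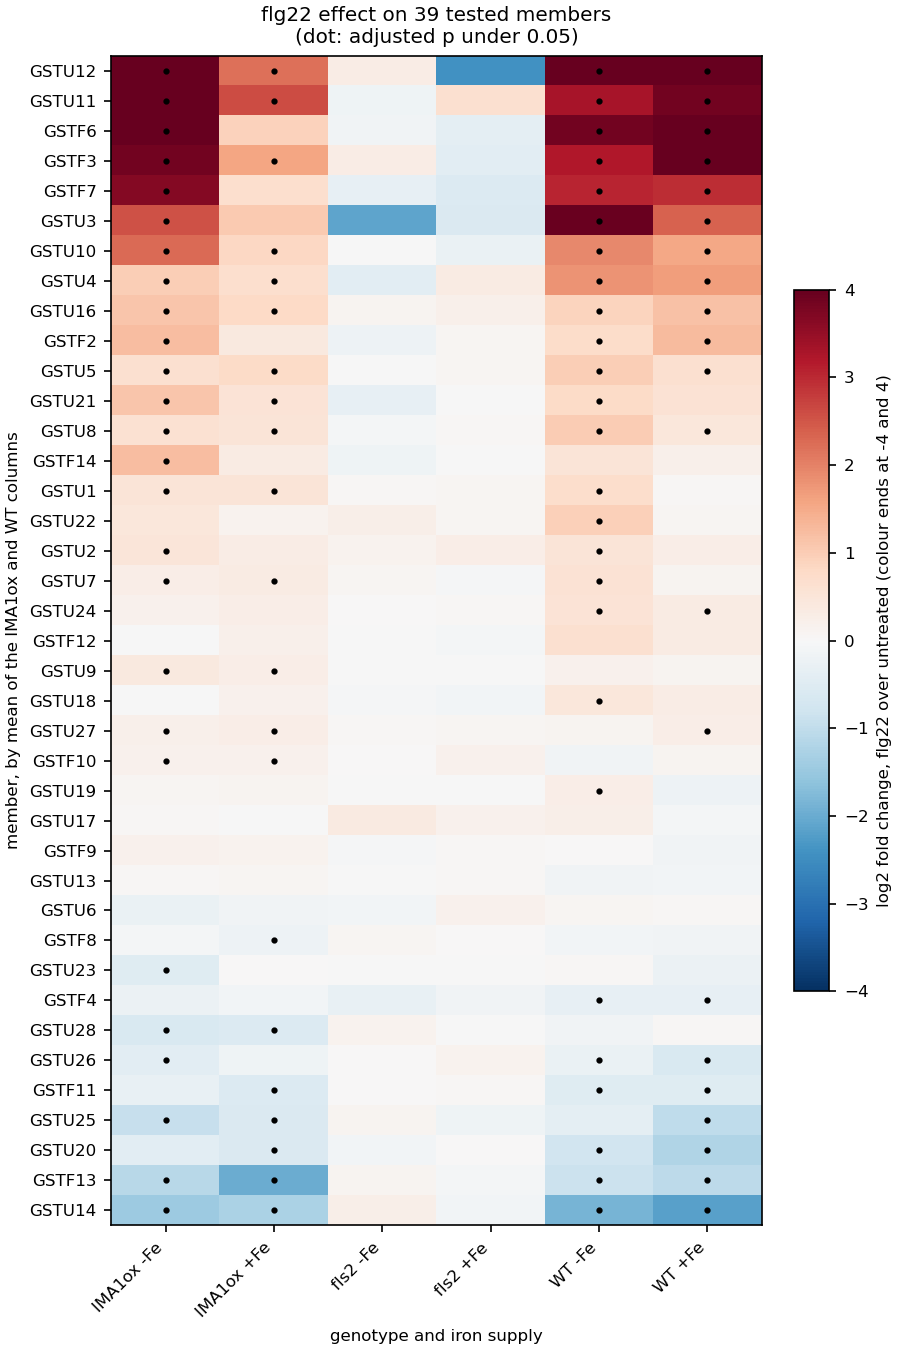
Log2 fold change of flg22 over untreated roots (colour, ending at -4 and 4) for the 39 tested members (rows) in IMA1ox, fls2 and WT on -Fe and +Fe (columns), with a dot where the adjusted p was under 0.05. The upper rows, led by GSTU12 and GSTU11, are dark in the IMA1ox -Fe column and the WT columns. In the IMA1ox +Fe column GSTF6 and GSTF7 are pale and hold no dot. The lowest rows hold GSTU14 and GSTF13, and the fls2 columns hold no dot.

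Some of the leading genes lie in tandem clusters, and some are near-identical copies whose reads can be hard to tell apart. GSTF2, GSTF3 and GSTU10 lie in no cluster, and the neighbours GSTU11 and GSTU12 share 45% of residues. Of the 41 members, 29 lie in 9 tandem clusters, the largest being GSTU1 to GSTU7 on chromosome 2, and 23 members are on chromosome 1. GSTF6 and GSTF7 sit side by side on chromosome 1, with proteins of 208 and 209 residues that are 93.3% identical and coding sequences that are 94.3% identical. GSTF2 and GSTF3 lie on chromosomes 4 and 2 and share 92.5% of residues and 94.5% of coding bases. No other pair within a class reached 85% of residues, with GSTU1 and GSTU2 next at 81.3%, and the counting step that split such reads is not given in the sources used here. Summed into 1 unit, GSTF6 and GSTF7 averaged 634.5 CPM in WT +Fe flg22 against 63.56 CPM in WT +Fe (log2 fold change 3.32 ± 0.44, adjusted p = 3.36e-06). In IMA1ox on +Fe the sum was 766.3 CPM with flg22 against 447.8 CPM without (log2 fold change 0.78 ± 0.40, adjusted p = 0.120). The pair GSTF2 and GSTF3, summed, gave log2 fold changes of 1.27 ± 0.20, adjusted p = 3.07e-05 for flg22 in WT on +Fe and 0.40 ± 0.20, adjusted p = 0.107 in IMA1ox on +Fe.

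The sequences before 3 of these genes are shown because GSTF7 and GSTU12 moved together with flg22 and GSTU14 moved the other way. Each is the 250 bases before the annotated gene start in RefSeq's TAIR10.1 assembly, on the strand of the gene, 5′ to 3′. Capitals mark matches to the W box that WRKY factors bind (TTGACC or TTGACT), to the TGA-factor core TGACG, to the GCC box GCCGCC and to the G box CACGTG, on either strand.
GSTF7, chr1:659981-660230, minus strand: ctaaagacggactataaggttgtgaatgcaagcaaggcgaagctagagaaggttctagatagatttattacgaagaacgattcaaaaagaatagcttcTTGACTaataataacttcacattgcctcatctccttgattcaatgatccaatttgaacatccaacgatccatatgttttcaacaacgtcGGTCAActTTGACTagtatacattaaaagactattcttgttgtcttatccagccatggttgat
GSTU12, chr1:26335631-26335880, minus strand: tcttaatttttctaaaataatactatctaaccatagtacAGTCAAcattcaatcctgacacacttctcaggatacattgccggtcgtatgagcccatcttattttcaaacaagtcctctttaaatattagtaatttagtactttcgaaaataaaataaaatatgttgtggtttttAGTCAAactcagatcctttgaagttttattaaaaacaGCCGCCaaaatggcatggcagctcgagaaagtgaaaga
GSTU14, chr1:9427554-9427803, plus strand: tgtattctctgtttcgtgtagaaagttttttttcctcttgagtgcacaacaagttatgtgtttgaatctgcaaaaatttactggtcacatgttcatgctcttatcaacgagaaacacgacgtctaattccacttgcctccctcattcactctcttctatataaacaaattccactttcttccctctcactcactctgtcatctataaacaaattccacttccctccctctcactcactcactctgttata

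In these windows GSTF7 had 3 W boxes, 152, 63 and 55 bases before the start, and GSTU12 had 2, at 211 and 75 bases, with a GCC box at 38 bases. GSTU14 had no match to any of the 4 motifs. The windows of 40 members were searched, and a W box was in 20 of them (50%), against 28.4% of the 27443 windows of all genes. It was in 17 of the 23 searched members that passed as higher with flg22, in 2 of the 10 that passed as lower and in 1 of the 5 that passed in none. W boxes were not counted among all genes called for flg22, so this split has no such background. GSTU8 and GSTU16, higher in all 4 flg22 comparisons, and GSTF2 had no match to any of the 4 motifs. TGACG was in 14 members (35%), against 18.6% of all windows, the GCC box in 3 (7.5%), against 1.87%, and the G box in 2 (5%), against 6.49%. The W box and TGACG share 4 letters and differ in the base after them, so no stretch of those 4 counts for both. A match is a description of letters, not of a bound site.

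With no flg22, IMA1ox roots had higher levels than WT of a set of members on +Fe, several of them also raised by flg22 in WT. On +Fe, 16 of 39 members (41%) differed between IMA1ox and WT, against 16.7% of all genes. Higher in IMA1ox were 13 (9 tau, 4 phi), against 7.09% of all genes, of which 8 were higher by at least 2-fold, against 1.16% of all genes, and 3 were lower (2 tau, 1 phi), against 9.63% of all genes. GSTF3 had 4.95, 5.41 and 5.89 CPM in IMA1ox +Fe libraries, against 0.0856, 0.102 and 0.397 CPM in WT +Fe libraries (log2 fold change 4.73 ± 0.64, adjusted p = 1.09e-05), and 5.80 on the log2 scale without WT +Fe replicate 3. GSTU12 had 3.17, 2.34 and 5.95 CPM against 0.371, 0.0681 and 0 CPM (log2 fold change 4.63 ± 1.02, adjusted p = 0.00243). For GSTU12 the log2 fold change was 6.77 without WT +Fe replicate 1 and 4.01 without WT +Fe replicate 3. GSTF6 had 129, 132 and 214 CPM against 15.7, 17.3 and 20.9 CPM (log2 fold change 3.14 ± 0.51, adjusted p = 0.000123). No library of WT overlapped with IMA1ox for these 3 genes, and IMA1ox +Fe replicate 3 was the highest of its group for each. On log2(CPM + 1), limma gave 2.02 for GSTU12 and 2.44 for GSTF3. The WT +Fe libraries also served as the untreated group of the flg22 comparison on +Fe.

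GSTF7 was also higher in IMA1ox on +Fe, with 243, 264 and 362 CPM against 38.2, 46 and 52.6 CPM (log2 fold change 2.67 ± 0.39, adjusted p = 3.03e-05). GSTF2 had 609, 645 and 808 CPM against 228, 192 and 194 CPM (log2 fold change 1.75 ± 0.20, adjusted p = 1.94e-06). The lowest IMA1ox library was several-fold above the highest WT library for GSTF7, and more than 2-fold above it for GSTF2. The tau members GSTU4 (log2 fold change 1.77 ± 0.26, adjusted p = 1.93e-05) and GSTU10 (log2 fold change 1.12 ± 0.21, adjusted p = 0.000472) were higher too, as were GSTU1, GSTU2, GSTU3, GSTU7, GSTU24 and GSTU25. The groups of GSTU3 overlapped, and its call was lost without WT +Fe replicate 1 or 2 or IMA1ox +Fe replicate 3. The GSTU2 call was lost without replicate 3 of either group, with adjusted p of 0.0591 and 0.088. GSTU23 had 6.62, 7.9 and 7.1 CPM against 10.4, 11.2 and 9.92 CPM (log2 fold change -0.54 ± 0.11, adjusted p = 0.00112). GSTU26 had 102, 88 and 93.8 CPM against 142, 126 and 147 CPM (log2 fold change -0.54 ± 0.10, adjusted p = 0.000366). GSTF9 had 1529, 1464 and 1701 CPM against 1847, 1952 and 1915 CPM (log2 fold change -0.28 ± 0.08, adjusted p = 0.0174), a call lost without IMA1ox +Fe replicate 1 or 2, with adjusted p of 0.0607 and 0.0881. These 3 were lower in every IMA1ox library than in every WT library. Of the 9 green shoot markers 3 were lower in IMA1ox and 0 higher, and of the 12 root markers 3 were lower and 2 higher. Sums of green shoot markers were lower in IMA1ox +Fe (150.2 to 199.6 CPM summed) than in WT +Fe (223.7 to 295.5 CPM), and so were sums of root markers (406.2 to 441.9 CPM against 524.3 to 646.6 CPM). The part of either in the result was not tested.

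On -Fe, 8 of 39 members (20.5%) differed between IMA1ox and WT, against 11.9% of all genes. Higher were 3, against 4.15% of all genes, and lower were 5, against 7.76%. Without WT -Fe replicate 3 the counts were also 3 and 5, against 8.25% of all genes called in that fit, and 6 of the 8 calls were kept. GSTU1 had 30.3, 32.7 and 31.9 CPM in IMA1ox -Fe libraries against 23.9, 23.3 and 21.5 CPM in WT -Fe libraries (log2 fold change 0.46 ± 0.09, adjusted p = 0.00106). GSTU7 had 34.5, 32.5 and 32.1 CPM against 24.5, 23.3 and 24.3 CPM (log2 fold change 0.46 ± 0.11, adjusted p = 0.00433). All IMA1ox libraries were above all WT ones in both. GSTU24 had 24.9, 24.4 and 23.4 CPM against 18, 19.4 and 17.2 CPM (log2 fold change 0.41 ± 0.12, adjusted p = 0.0230), a call lost without WT -Fe replicate 1 or 3 or IMA1ox -Fe replicate 1 or 2, with adjusted p between 0.0598 and 0.0799. GSTF10 had 905, 958 and 879.6 CPM against 1312, 1317 and 1221 CPM, with no overlap (log2 fold change -0.49 ± 0.06, adjusted p = 3.61e-06). GSTF11 had 17.4, 19.3 and 23.1 CPM against 31.3, 30.2 and 24 CPM (log2 fold change -0.52 ± 0.13, adjusted p = 0.0108). The GSTF11 call was lost without WT -Fe replicate 1 or IMA1ox -Fe replicate 1 and when the groups were fitted alone, with adjusted p between 0.0537 and 0.0727. GSTF9 had 1344, 1427 and 1591 CPM against 2004, 1970 and 1568 CPM, with WT -Fe replicate 3 within the IMA1ox range (log2 fold change -0.35 ± 0.08, adjusted p = 0.00602), a call lost when the groups were fitted alone (adjusted p = 0.0889). GSTF6 had 9.66, 12.5 and 10.3 CPM against 16.5, 19.4 and 25.8 CPM (log2 fold change -0.93 ± 0.53, adjusted p = 0.275), and this did not pass. Of the green shoot markers, 3 of 9 were lower in IMA1ox (146.8 to 170.6 CPM summed, against 183.7 to 283.6 CPM in WT), and of the root markers 0 passed, and the part of the green markers was not tested.

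**Figure D4:**
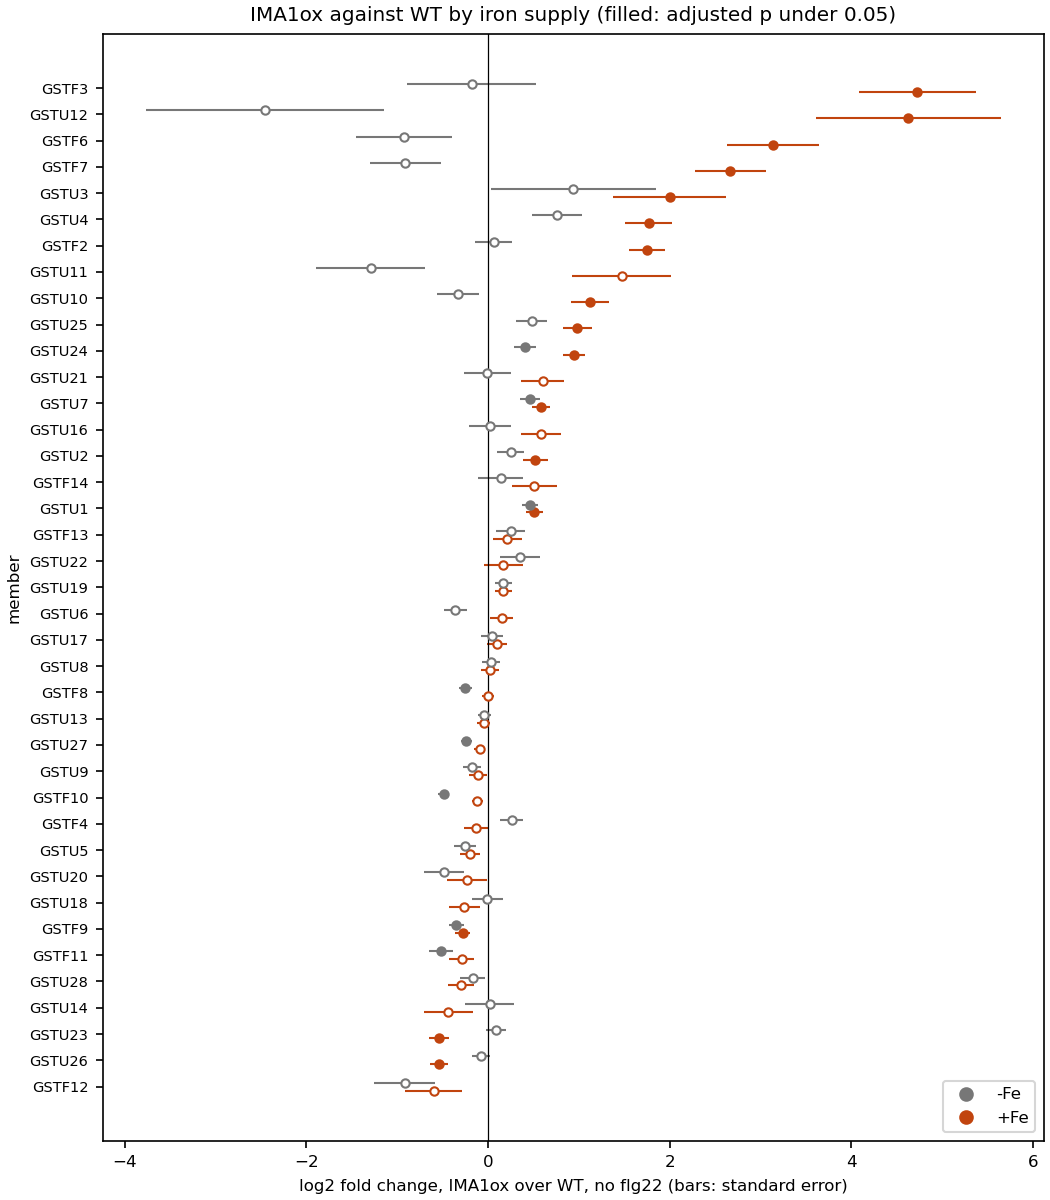
Log2 fold change of IMA1ox over WT without flg22 (horizontal axis, bars are standard errors) for the 39 tested members, on -Fe (grey) and +Fe (orange), filled where the adjusted p was under 0.05. On +Fe GSTF3 (4.73), GSTU12 (4.63), GSTF6 (3.14) and GSTF7 (2.67) lie far to the right, and on -Fe no filled point lies beyond 1 in either direction.

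Within IMA1ox and without flg22, 18 of 39 members (46.2%) differed between -Fe and +Fe, against 4.29% of all genes. This comparison shares the IMA1ox +Fe libraries with that of IMA1ox and WT on +Fe. Lower on -Fe were 17 (13 tau, 4 phi), against 2.39% of all genes, 7 of them by at least 2-fold, against 0.835% of all genes, and GSTU23 was higher, against 1.9% of all genes. The median log2 fold change was -0.48 for the members and 0.00 over all genes. The largest falls were those of GSTU12 (log2 fold change -4.70 ± 1.01, adjusted p = 0.00624), GSTF6 (log2 fold change -3.88 ± 0.54, adjusted p = 7.93e-05), GSTF7 (log2 fold change -3.62 ± 0.41, adjusted p = 6.11e-06) and GSTF3 (log2 fold change -3.37 ± 0.54, adjusted p = 0.000323). GSTF6 had 9.66, 12.5 and 10.3 CPM in IMA1ox -Fe libraries against 129, 132 and 214 CPM in IMA1ox +Fe libraries, so the groups lay over 10-fold apart. GSTF7 had 21.9, 26.2 and 22.7 CPM against 243, 264 and 362 CPM, and GSTF3 had 0.707, 0.305 and 0.508 CPM against 4.95, 5.41 and 5.89 CPM. No library of either gene overlapped between the media. GSTU10 (log2 fold change -1.61 ± 0.22, adjusted p = 3.44e-05), GSTF2 (log2 fold change -1.29 ± 0.20, adjusted p = 0.000281) and GSTU4 (log2 fold change -1.15 ± 0.25, adjusted p = 0.00502) completed the falls of 2-fold or more. On log2(CPM + 1), limma gave -2.01 for GSTU12 and -2.1 for GSTF3. The GSTU4 call was lost without IMA1ox +Fe replicate 3 (log2 fold change -0.77, adjusted p = 0.0879) and when the groups were fitted alone (adjusted p = 0.115). The smaller falls included GSTU1, GSTU2, GSTU5, GSTU7, GSTU8, GSTU17, GSTU19, GSTU21, GSTU24 and GSTU25. The GSTU2 call was lost without IMA1ox +Fe replicate 2 or 3 or IMA1ox -Fe replicate 1 (adjusted p between 0.0579 and 0.135), and the GSTU5 call without IMA1ox +Fe replicate 3 or IMA1ox -Fe replicate 1 or 3 (0.0738 to 0.104). The GSTU17 call held only without IMA1ox -Fe replicate 3, and the GSTU21 call only without IMA1ox -Fe replicate 1. The rise of GSTU23 held only without IMA1ox +Fe replicate 2 or IMA1ox -Fe replicate 1 (otherwise 0.0579 to 0.192). Of the root markers 3 of 12 were higher on -Fe and 0 lower, and of the green shoot markers 0 passed. Sums of root markers did not overlap, at 591.8 to 610.1 CPM in IMA1ox -Fe against 406.2 to 441.9 CPM in IMA1ox +Fe. Sums of green shoot markers overlapped, at 146.8 to 170.6 CPM against 150.2 to 199.6 CPM. The part of either list in this result was not tested.

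In WT roots without flg22, GSTF10 and GSTU27 were higher and 5 tau members lower on -Fe than on +Fe. In all, 7 of 39 members (17.9%) differed, against 5.97% of all genes, 2 higher (against 3.12% of all genes) and 5 lower (against 2.85%). Without WT -Fe replicate 3 it was 2 higher and 6 lower, against 5.76% of all genes called in that fit. GSTF10 had 1312, 1317 and 1221 CPM in WT -Fe libraries against 988, 939.5 and 967 CPM in WT +Fe libraries (log2 fold change 0.41 ± 0.06, adjusted p = 4.04e-05). GSTU27 had 86.2, 80 and 84 CPM against 70.6, 66.1 and 67.1 CPM (log2 fold change 0.30 ± 0.06, adjusted p = 0.000787). Both were higher in every -Fe library than in every +Fe library. GSTU1 had 23.9, 23.3 and 21.5 CPM against 31.5, 38.6 and 32.2 CPM (log2 fold change -0.57 ± 0.09, adjusted p = 0.000120). GSTU8 had 139, 129.5 and 132 CPM against 174, 212 and 204 CPM (log2 fold change -0.56 ± 0.10, adjusted p = 0.000455). GSTU19 had 425, 386 and 355 CPM against 448, 618 and 543 CPM (log2 fold change -0.46 ± 0.09, adjusted p = 0.00152). These 3 tau members were lower in every -Fe library, though the GSTU19 call was lost when the 2 groups were fitted alone (adjusted p = 0.123). GSTU5 (log2 fold change -0.44 ± 0.11, adjusted p = 0.0194) and GSTU7 (log2 fold change -0.43 ± 0.11, adjusted p = 0.0102) were the other called falls, GSTU5 lost without WT +Fe replicate 3 or WT -Fe replicate 2, and GSTU7 without WT +Fe replicate 2.

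The iron contrast of IMA1ox and that of WT share no library. Called in both with the same sign were 5 members, 27.8% of the calls in IMA1ox and 71.4% of those in WT, where over all genes the shares were 9.28% and 6.66%. The test of the difference itself, the iron effect in IMA1ox minus that in WT, passed in 8 members, against 4.02% of all genes, 1 with a higher value in IMA1ox (against 1.71% of all genes) and 7 with a lower one (against 2.31%). Without WT -Fe replicate 3, 9 members passed, 2 higher and 7 lower, against 3.86% of all genes in that fit. The 5 largest were GSTU12 (-7.09 ± 1.68 on the log2 scale, adjusted p = 0.0142), GSTF3 (-4.91 ± 1.02 on the log2 scale, adjusted p = 0.00473), GSTF6 (-4.07 ± 0.73 on the log2 scale, adjusted p = 0.00148), GSTF7 (-3.58 ± 0.54 on the log2 scale, adjusted p = 0.000252) and GSTF2 (-1.69 ± 0.28 on the log2 scale, adjusted p = 0.000697). GSTF2 had 313, 288 and 243 CPM in IMA1ox -Fe libraries against 609, 645 and 808 CPM in IMA1ox +Fe libraries, and 223, 279 and 310.3 CPM in WT -Fe libraries against 228, 192 and 194 CPM in WT +Fe libraries. The summed pair GSTF6 and GSTF7 gave -3.73 ± 0.59, adjusted p = 0.000427 and the summed pair GSTF2 and GSTF3 -1.70 ± 0.28, adjusted p = 0.000667. The difference for GSTU12 was -9.23 without WT +Fe replicate 1 and -6.47 without WT +Fe replicate 3, and its call was lost without WT -Fe replicate 2 (-6.68, adjusted p = 0.0647). For GSTF3 it was -5.98 without WT +Fe replicate 3, and without WT -Fe replicate 3 the call was lost (-2.85, adjusted p = 0.279).

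With flg22 present, the iron contrast was tested in each genotype. In IMA1ox 9 of 39 members differed between -Fe flg22 and +Fe flg22, against 2.26% of all genes, with GSTF13 higher (log2 fold change 1.16 ± 0.19, adjusted p = 0.000646; adjusted p = 0.114 with the groups fitted alone) and 8 tau members lower, against 0.884% and 1.38% of all genes. Without IMA1ox -Fe flg22 replicate 1, 7 passed, 1 higher and 6 lower, against 1.45% of all genes in that fit. The falls were led by GSTU25 (log2 fold change -1.31 ± 0.17, adjusted p = 7.18e-05) and GSTU24 (log2 fold change -0.98 ± 0.11, adjusted p = 1.17e-05), which both act on trinitrotoluene. GSTF6 had 27.2, 372 and 290.3 CPM in IMA1ox -Fe flg22 libraries and 294, 367 and 245 CPM in IMA1ox +Fe flg22 libraries, which overlap. In WT with flg22, 0 members passed, against 0.138% of all genes, with 0 by DESeq2 and by limma and 6 at an unadjusted p under 0.05, where 10.4% of all genes were. In fls2 with flg22, 4 of 39 passed, against 5.3% of all genes (2.08% higher and 3.22% lower), with GSTU27 higher and GSTU1, GSTU5 and GSTU8 lower. The GSTU8 call was lost without fls2 +Fe flg22 replicate 3, the GSTU5 call with any library but fls2 -Fe flg22 replicate 3 left out, and the GSTU27 call without fls2 +Fe flg22 replicate 2 or 3 or fls2 -Fe flg22 replicate 1 or 2. In fls2 without flg22, 3 of 39 passed, against 2.12% of all genes (1.15% higher and 0.968% lower), with GSTF10 (log2 fold change 0.31 ± 0.06, adjusted p = 0.00296) and GSTU27 (log2 fold change 0.22 ± 0.06, adjusted p = 0.0266) higher and GSTU1 lower (log2 fold change -0.42 ± 0.09, adjusted p = 0.00724). All 3 were called with the same sign in WT without flg22, as were 79.4% of all genes called in fls2, so the count is near the background. The 3 are 42.9% of the 7 calls in WT, against 28.1% over all genes. The GSTU1 call in fls2 was lost without fls2 +Fe replicate 3 or fls2 -Fe replicate 1, and the GSTU27 call with any library but fls2 -Fe replicate 3 left out.

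With flg22 on +Fe, 11 of 39 members (28.2%) differed between IMA1ox and WT, against 14.5% of all genes, 9 higher (against 7.05% of all genes) and 2 lower (against 7.44%). GSTF3 had 16.7, 19 and 12.8 CPM in IMA1ox +Fe flg22 libraries, against 5.07, 5.47 and 3.4 CPM in WT +Fe flg22 libraries (log2 fold change 1.80 ± 0.41, adjusted p = 0.00356), a call to which DESeq2 gave an adjusted p of 0.058. GSTU25 had 23.7, 29.6 and 27.9 CPM against 10.3, 8.51 and 11.2 CPM (log2 fold change 1.44 ± 0.18, adjusted p = 2.28e-06). GSTU1 had 66, 67.9 and 71.4 CPM against 33.2, 37 and 36.3 CPM (log2 fold change 0.95 ± 0.09, adjusted p = 1.75e-08). In these 3 the IMA1ox libraries were all above the WT ones. GSTU28 had 8.25, 7.26 and 6.7 CPM against 14.9, 13.1 and 13.4 CPM (log2 fold change -0.90 ± 0.14, adjusted p = 5.27e-05). GSTF13 had 2.48, 4.36 and 2.95 CPM against 5.61, 4.97 and 5.4 CPM (log2 fold change -0.70 ± 0.20, adjusted p = 0.0149). The GSTF13 call was lost without WT +Fe flg22 replicate 1 or IMA1ox +Fe flg22 replicate 1 or 3, with adjusted p between 0.0566 and 0.0969. GSTF6 was not called (log2 fold change 0.09 ± 0.45, adjusted p = 0.927). Of the 9 green shoot markers 5 were lower in IMA1ox and 0 higher, with sums of 220.5 to 293.8 CPM against 326.6 to 468.2 CPM in WT. Of the 12 root markers 2 were lower and 0 higher, with sums of 287.4 to 306.1 CPM in IMA1ox +Fe flg22 against 327.8 to 438.3 CPM in WT +Fe flg22. The part of either list was not tested.

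With flg22 on -Fe, 8 of 39 members (20.5%) differed between IMA1ox and WT, against 10.3% of all genes, 2 higher (against 4.44% of all genes) and 6 lower (against 5.88%). Without IMA1ox -Fe flg22 replicate 1, 10 differed, 4 higher and 6 lower, against 10.3% of all genes in that fit. GSTF12, the phi member that carries anthocyanins to the vacuole, had 0.564, 1.16 and 0.726 CPM in IMA1ox -Fe flg22 libraries against 2.23, 2.8 and 2.35 CPM in WT -Fe flg22 libraries (log2 fold change -1.58 ± 0.32, adjusted p = 0.00140; -0.94 by limma on log2(CPM + 1)). GSTU6 had 30.7, 23.6 and 24.1 CPM against 42.5, 38.2 and 46.7 CPM (log2 fold change -0.70 ± 0.13, adjusted p = 0.000742). GSTU28 had 9.42, 7.71 and 8.23 CPM against 14.2, 13.5 and 11.7 CPM (log2 fold change -0.63 ± 0.14, adjusted p = 0.00282). All 3 were lower in every IMA1ox library. GSTF14 had 137, 108 and 184 CPM against 87.6, 66.4 and 83.3 CPM (log2 fold change 0.85 ± 0.24, adjusted p = 0.0251), and the call was lost without WT -Fe flg22 replicate 2 or 3 or IMA1ox -Fe flg22 replicate 3, with adjusted p between 0.0592 and 0.149. GSTU1 had 39.1, 50.1 and 45.2 CPM against 36.7, 35.2 and 39.3 CPM, with overlap (log2 fold change 0.27 ± 0.09, adjusted p = 0.0430). The GSTU1 call was lost with any of the 6 libraries left out except IMA1ox -Fe flg22 replicate 1, with adjusted p between 0.0521 and 0.25. Of the 9 green shoot markers 6 were lower in IMA1ox and 0 higher, with sums of 204.5 to 276.1 CPM against 330.2 to 559.1 CPM in WT. Of the 12 root markers 1 was lower and 1 higher, with sums of 288.8 to 419.9 CPM in IMA1ox -Fe flg22 against 370.9 to 402.1 CPM in WT -Fe flg22. The part of either list was not tested.

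The flg22 effect itself was compared between iron supplies and between genotypes. In IMA1ox the effect on -Fe minus that on +Fe passed in 3 members, against 0.177% of all genes, and in 6 without IMA1ox -Fe flg22 replicate 1, against 2.01% of all genes in that fit. The 3 were GSTF6 (3.49 ± 0.69 on the log2 scale, adjusted p = 0.0337), GSTF7 (3.0 ± 0.53 on the log2 scale, adjusted p = 0.0155) and GSTU10 (1.46 ± 0.29 on the log2 scale, adjusted p = 0.0293). GSTU10 had 16.8, 39.5 and 37.1 CPM with flg22 against 6.44, 6.74 and 6.04 CPM without on -Fe, and 30.5, 39.5 and 33.8 CPM against 17.6, 20.7 and 20.4 CPM on +Fe. GSTF7 had 74.4, 455 and 379 CPM with flg22 against 21.9, 26.2 and 22.7 CPM without on -Fe. For all 3 genes every untreated IMA1ox library on +Fe was above every untreated one on -Fe. On +Fe the effect in IMA1ox minus that in WT passed in 2 members, against 0.865% of all genes, GSTF6 (-3.05 ± 0.67 on the log2 scale, adjusted p = 0.0287) and GSTF7 (-2.26 ± 0.52 on the log2 scale, adjusted p = 0.0351). On -Fe it passed in 1 member, against 2.87% of all genes, GSTF10 (0.32 ± 0.09 on the log2 scale, adjusted p = 0.0381). Without IMA1ox -Fe flg22 replicate 1 GSTF10 did not pass and 1 other member did, against 3.35% of all genes in that fit. Without WT -Fe replicate 3 GSTF10 alone passed, against 2.25% of all genes in that fit. GSTF10 had 1081, 1018 and 995 CPM with flg22 against 905, 958 and 879.6 CPM without in IMA1ox on -Fe, and 1182, 1071 and 1230 CPM against 1312, 1317 and 1221 CPM in WT on -Fe. These 6 calls lay near the threshold. Within IMA1ox, the GSTF6 call held without +Fe replicate 1 or 2, +Fe flg22 replicate 2 or -Fe flg22 replicate 1, and was lost without any other library (adjusted p between 0.0837 and 0.121). The GSTU10 call held without +Fe replicate 1, +Fe flg22 replicate 2 or -Fe flg22 replicate 1 and was otherwise lost (0.0601 to 0.0992). The GSTF7 call was lost without +Fe replicate 3, +Fe flg22 replicate 1 or 3, -Fe replicate 1 or 3 or -Fe flg22 replicate 2 (0.052 to 0.0761). Between IMA1ox and WT on +Fe, the GSTF6 call was lost without any WT untreated library, WT flg22 replicate 1, IMA1ox untreated replicate 3 or IMA1ox flg22 replicate 1 or 3 (0.0535 to 0.0914). The GSTF7 call held only without WT flg22 replicate 3 or IMA1ox untreated replicate 2 (otherwise 0.051 to 0.1). On -Fe the GSTF10 call held only without WT untreated replicate 3, WT flg22 replicate 3, IMA1ox untreated replicate 2 or IMA1ox flg22 replicate 3 (otherwise 0.052 to 0.152).

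The members called between IMA1ox and WT on +Fe, whether higher or lower, were set beside the flg22 response of WT on -Fe. These comparisons share no library. Of the 16 members called between IMA1ox and WT on +Fe, 13 (81.2%) were called with the same sign for flg22 in WT on -Fe. Over all genes called in the first, 28.3% were. With the opposite sign 0 members were called, against 15% of all genes called in the first. Those 13 are 50% of the 26 members called for flg22, against 13.5% over all genes. The iron contrast within IMA1ox, set against flg22 in WT on -Fe, also shares no library, and 15 members passed in both with opposite signs and 0 with the same sign. Those 15 are 83.3% of the members called for iron in IMA1ox, against 64.5% over all genes, and 57.7% of those called for flg22, against 7.91% over all genes. With the same sign the shares over all genes were 2.86% and 0.351%. Set against flg22 in WT on +Fe, again with no shared library, 10 members passed with opposite signs and 1 with the same sign. Those 10 are 55.6% of the members called for iron in IMA1ox, below the 62.5% over all genes. They are 47.6% of the members called for flg22 on +Fe, against 6.68% over all genes.

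Over the 12 group means, some members kept near-equal patterns of level, measured by Pearson's r of log2(CPM + 0.1) as a description over 12 points and with no test. Nearest to GSTF6 were GSTF7 (1.0), GSTU10 (0.99) and GSTU12 (0.98). Nearest to GSTF2 were GSTF3 (0.98) and GSTU4 (0.97), and nearest to GSTU14 were GSTU20 (0.91) and GSTF13 (0.88). GSTU1 was nearest to GSTU7 (0.99) and GSTU24 (0.95), and GSTF10 to GSTU27 (0.86). GSTF6 and GSTF7 are near copies, as are GSTF2 and GSTF3, so the likeness within each pair can hold shared reads.

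Other genes of glutathione metabolism were counted for flg22 in IMA1ox and WT. The shares of all genes to read them against are those above, 24% higher and 21.5% lower in IMA1ox on -Fe, 23% and 20.4% in IMA1ox on +Fe, 18.2% and 16.8% in WT on -Fe, and 20.8% and 19.4% in WT on +Fe. Of the 4 tested genes of glutathione synthesis and reduction, 3 were higher and 0 lower in IMA1ox on each medium (medians 0.17 on -Fe and 0.12 on +Fe). In WT 0 were called on +Fe, and on -Fe only GSH1, the glutamate-cysteine ligase, passed (log2 fold change 0.23 ± 0.05, adjusted p = 0.000485). Of the 10 tested genes of conjugate transport and breakdown, 3 were higher and 2 lower with flg22 in WT on +Fe, and 4 were higher and 2 lower on -Fe, with median log2 fold changes of 0.03 and 0.07, beside 0.01 and 0.00 over all genes. In IMA1ox 5 were higher and 2 lower on -Fe, and 3 were higher and 2 lower on +Fe. In WT on +Fe the largest rise was that of GGT1, a gamma-glutamyl transferase (log2 fold change 0.89 ± 0.19, adjusted p = 0.000470), and the largest fall that of ABCC6 (log2 fold change -0.33 ± 0.13, adjusted p = 0.0486). ABCC1, a vacuolar conjugate pump, was among the rises in WT on -Fe (log2 fold change 0.52 ± 0.05, adjusted p = 3.48e-08). Of the 12 tested genes of other GST classes, 6 were higher and 0 lower in IMA1ox on -Fe, and 4 were higher and 0 lower in IMA1ox on +Fe. In WT 3 were higher and 3 lower on +Fe, and 2 were higher and 1 lower on -Fe (medians 0.03 and 0.04). GSTL1, of the lambda class, fell most on both media in WT (log2 fold change -1.86 ± 0.52, adjusted p = 0.00610 on +Fe and log2 fold change -2.77 ± 0.47, adjusted p = 8.58e-05 on -Fe), opposite to the leading phi and tau members.

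The list of TGA factors and xenobiotic response genes holds the factors themselves, SCL14 and genes of detoxification. Of 14 tested, 4 were higher and 0 lower in IMA1ox than in WT on +Fe, against 7.09% and 9.63% of all genes (median log2 fold change 0.29, 0.01 over all genes), led by the glucosyltransferase gene UGT73B4 (log2 fold change 1.36 ± 0.19, adjusted p = 1.24e-05), and 10 were higher and 0 lower on +Fe with flg22, against 7.05% and 7.44% of all genes (median 0.52). Within IMA1ox, 0 were higher and 6 lower on -Fe than on +Fe, against 1.9% and 2.39% of all genes (median -0.44), led by UGT73B4 (log2 fold change -1.76 ± 0.19, adjusted p = 3.56e-06) and CYP81D11 (log2 fold change -1.56 ± 0.31, adjusted p = 0.00255). For flg22 in IMA1ox, 8 were higher and 1 lower on -Fe, and 5 were higher and 0 lower on +Fe. For flg22 in WT, 5 were higher and 0 lower on -Fe, against 18.2% and 16.8% of all genes, and 4 were higher and 2 lower on +Fe, against 20.8% and 19.4%. Of 5 tested anthocyanin genes, the pathway that GSTF12 serves, 3 were lower and 0 higher in IMA1ox than in WT on -Fe with flg22 (median -0.44), where 5.88% of all genes were lower. The counts were also 3 lower and 0 higher on +Fe with flg22 and on +Fe without, where GSTF12 did not pass, and 1 lower and 0 higher on -Fe without flg22. Of 10 tested aliphatic glucosinolate genes, the pathway of GSTF11 and GSTU20, 1 was higher and 0 lower with flg22 in IMA1ox on -Fe (median -0.07), and 0 were higher and 1 lower in IMA1ox on +Fe (median -0.22). In WT 0 were higher and 2 lower with flg22 on -Fe (median -0.32), and 0 were higher and 4 lower on +Fe (median -0.33). Between IMA1ox and WT, 0 were higher and 6 lower in IMA1ox on -Fe (median -0.44), against 4.15% and 7.76% of all genes. On +Fe 0 were higher and 2 lower, and with flg22 0 were higher and 1 lower on each medium. In fls2 none of the genes in these lists passed for flg22.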

How the data were processed

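Root RNA-seq of 36 libraries was analysed from the authors' deposited table of raw counts per gene, whose loci were matched to symbols by locus tag. Per the submitters' processing notes, STAR 2.7.0a, edgeR 3.36.0 and the TAIR10 build were used, and the counting tool and strand setting are not given in the sources used here. The authors also deposited a normalised signal, counts scaled by 1 constant per library to about CPM, used here for 1 alternative. A single fit held all 36 libraries (edgeR 4.0.16, R 4.3.3), with TMM scaling, 1 mean per group, a minimum count of 10 in filterByExpr and robust quasi-likelihood tests. Pairs of groups were compared in 18 comparisons and effects in 7 differences of effects. Calls had a Benjamini-Hochberg adjusted p under 0.05 over all 20354 genes tested. Printed CPM values use TMM-scaled library sizes, and group values are means of 3 libraries. Levels per kb use coding length from RefSeq's TAIR10.1, which was used by locus with its own coordinates only. By a fixed rule, values per library are given for the called members with the largest changes in each direction (for flg22 in WT, only where the groups do not overlap) and for up to 5 called members with the largest differences of effects, other than fls2 minus WT. Other members' values were chosen after they were seen. The members, lists and tests were chosen with earlier results of these data known. Alternatives were relative-log-expression scaling, library totals alone, no filter and a stricter filter, DESeq2 1.42.0, limma 3.58.1 on log2(CPM + 1), the compared groups alone, a block for replicate number, leaving out each library in turn, summed near-identical copies and, chosen after seeing the data, leaving out the 2 libraries that stood apart. The steps were tested on simulated data. Some genes and upstream windows are not reported here.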

Additional observations from a re-analysis of the deposited data

Results flagged for a closer look

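Of the tests of a difference between 2 effects, these members passed. In WT, the flg22 effect on -Fe minus that on +Fe was 0.63 on the log2 scale for GSTU1. In IMA1ox the same difference was 3.49 for GSTF6, 3.0 for GSTF7 and 1.46 for GSTU10. Over all genes, 0.246% passed for this difference in WT and 0.177% in IMA1ox. On +Fe, the flg22 effect in IMA1ox minus that in WT was -3.05 for GSTF6 and -2.26 for GSTF7, and on -Fe it was 0.32 for GSTF10. Over all genes, 0.865% passed on +Fe and 2.87% on -Fe. GSTF10 alone is 2.56% of the members, below that share on -Fe. The flg22 effect in fls2 minus that in WT passed in 16 of 39 members on -Fe, against 21.2% of all genes. On +Fe it passed in 18, against 20.2% of all genes. The iron effect (-Fe over +Fe) in IMA1ox minus that in WT was -7.09 for GSTU12, -4.91 for GSTF3, -4.07 for GSTF6, -3.58 for GSTF7, -1.69 for GSTF2, -1.45 for GSTU10, -0.37 for GSTF10 and 0.64 for GSTU23. Over all genes, 4.02% passed. The GSTF3 call was lost without WT -Fe replicate 3, and the GSTU12 call without WT -Fe replicate 2. Each call named above for a flg22 difference within WT, within IMA1ox or between them was lost with some single libraries left out.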

How the results depend on the processing

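Of 227 calls of a member in a comparison or difference, 148 held under every alternative and every left-out library, and 0 turned round. Of 225 counts of called members under other settings, 205 were within 1.5 times the reported count. The cause of the moves below was not tested. For the iron effect in fls2 with flg22 the count of 4 became 2 with no filter and 8 with the compared groups alone. For IMA1ox against WT without flg22 on -Fe, 8 became 13 by DESeq2. For the same contrast with flg22, 8 became 4 with the groups alone. For the difference of flg22 effects by iron in WT, 1 became 2 by DESeq2 and 0 with the groups alone. For that in IMA1ox, 3 became 0 by limma, 0 with the groups alone and 7 without the 2 libraries that stood apart. For IMA1ox minus WT on +Fe, 2 became 5 by DESeq2, 0 by limma, 8 with the groups alone and 7 without those libraries. For IMA1ox minus WT on -Fe, 1 became 0 with library totals, 2 by DESeq2, 0 with the groups alone and 2 without those libraries.

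With library totals alone, IMA1ox against WT on -Fe gave 5 higher and 4 lower, beside 3 and 5, and with flg22 4 and 6, beside 2 and 6. For iron in fls2 it gave 1 higher and 1 lower, beside 2 and 1, and with flg22 0 and 3, beside 1 and 3.

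With 1 library left out, counts ranged from 23 to 29 for flg22 in IMA1ox on -Fe, 16 to 19 on +Fe, 21 to 25 in WT on -Fe and 20 to 21 on +Fe. They ranged from 12 to 16 for iron in IMA1ox, 1 to 4 for iron in fls2 and 1 to 4 for iron in fls2 with flg22. They ranged from 0 to 3 for the flg22 effects by iron in WT and 0 to 6 for those in IMA1ox. For IMA1ox minus WT the ranges were 0 to 2 on +Fe and 0 to 2 on -Fe.

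The labels do not say what a replicate number marks, and correlations of deviations cannot exclude pairing. Of 198 pairs of libraries with 1 number, 36 had deviations correlated over 0.1. The median correlation was 0.023, beside -0.01 for pairs of libraries with different numbers. With the replicate number as a block, 225 of the 227 calls held. The count became 5 for iron in fls2, 2 for the flg22 effects by iron in WT and 3 for IMA1ox minus WT on -Fe.

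Pools of roots, 3 libraries per group and near-identical gene pairs limit precision, and members at a few counts in untreated roots have folds that move with the scale.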
